A study of Mus musculus with 30 samples.

Results

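The genes described here are Zscan4a, Zscan4c, Zscan4d, Zscan4e, Zscan4f, Usp17la, Tcstv1, Tcstv3 and Zfp352. They are 9 of the 55421 genes in the deposited count table, chosen by name from genes whose transcripts mark the 2-cell embryo, with earlier results of these data known. Each member symbol matched 1 row of the table.

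The libraries were made from polyA RNA of E14 mouse embryonic stem cells, an XY line of 129P2/Ola background grown on gelatin with serum, LIF and the inhibitors PD0325901 and CHIR-99021. There were 5 lines, each sampled untreated and treated for 24 h, in 10 groups of 3 libraries, and every line carried Tir1. The labels give the molecule as genomic DNA, while their protocol describes polyA RNA; the values were read as RNA counts. The plant protein Tir1 lets auxin trigger the destruction of a protein fused to an auxin-inducible degron (AID). The TIR1 line had no degron. The PDS5AB line had genotype PDS5A-AID, PDS5B-AID, and the WAPL line WAPL-AID. The PDS5AB-NIPBL line joined PDS5A-AID and PDS5B-AID with NIPBL-FKBP and RAD21-Halo, and the WAPL-NIPBL line joined WAPL-AID with the same NIPBL-FKBP and RAD21-Halo fusions. Treatment was auxin at 500 µM in the TIR1, PDS5AB and WAPL lines. In the combined lines it was auxin at 500 µM with dTAG-13 at 500 nM, which acts on the FKBP tag. Cohesin is a ring-shaped complex that forms chromatin loops: NIPBL helps it to extrude them, WAPL releases it from DNA, and the PDS5 proteins bind it and modulate its activity. The series compared loss of these regulators alone and together. Each line has a single clone name in the labels, so a line and its clone cannot be told apart. Nothing in the labels says that replicates came from separate cultures, so p-values measure the spread between these libraries, which may be technical.

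The Zscan4 genes encode proteins with a SCAN domain and zinc fingers, and lie as near-identical copies in a cluster on chromosome 7. They are transcribed in the 2-cell mouse embryo and, at any moment, in a small fraction of embryonic stem cells, where Zscan4 is known for its part in telomere lengthening. The transcription factor DUX, made from the gene Duxf3, activates them. Usp17la encodes a deubiquitinating enzyme of the USP17 family, Tcstv1 and Tcstv3 belong to a 2-cell-stage variable group of genes, and Zfp352 encodes a zinc finger protein of the early embryo. In bulk RNA, fewer cells in such a state and less RNA per cell cannot be told apart.

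On GRCm38 the 5 Zscan4 members lie within chromosome 7, from 10794242 (the start of Zscan4a) to 11402318 (the end of Zscan4f). Zscan4a spans 10794242 to 10799057 on the minus strand and is annotated as an unprocessed pseudogene in GENCODE vM21. The other 8 genes are annotated as protein-coding. Zscan4c spans 11005745 to 11010547 (plus), Zscan4d 11161374 to 11166159 (minus), Zscan4e 11306378 to 11310682 (minus) and Zscan4f 11397915 to 11402318 (plus). Usp17la lies on the same chromosome at 104857009 to 104862667 (plus). Tcstv1 (119893388 to 119894785, minus) and Tcstv3 (120316878 to 120318178, plus) lie on chromosome 13, and Zfp352 (90218820 to 90225702, plus) on chromosome 4. No other gene of the table overlaps any of the 9 on either strand, so counting without strand adds no overlapping gene to them.

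Promoter sequences from RefSeq (GRCm38.p6) were found for 5 of the 9 genes. The 250 bases before the start are printed for the 3 Zscan4 copies with an entry, because they show how alike the copies are where transcription begins, and for Usp17la, the companion that followed them most closely. Capitals mark TGATTCAA, letters shared with the site of DUX, and TATAAA, the letters of a TATA box, each searched on both strands.
Zscan4c (chr7:11005495-11005744, plus strand): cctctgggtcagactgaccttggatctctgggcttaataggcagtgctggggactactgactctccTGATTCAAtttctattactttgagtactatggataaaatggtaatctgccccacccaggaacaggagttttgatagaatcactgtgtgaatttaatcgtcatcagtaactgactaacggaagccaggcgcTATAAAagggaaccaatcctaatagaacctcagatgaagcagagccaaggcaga
Zscan4d (chr7:11166149-11166398, minus strand): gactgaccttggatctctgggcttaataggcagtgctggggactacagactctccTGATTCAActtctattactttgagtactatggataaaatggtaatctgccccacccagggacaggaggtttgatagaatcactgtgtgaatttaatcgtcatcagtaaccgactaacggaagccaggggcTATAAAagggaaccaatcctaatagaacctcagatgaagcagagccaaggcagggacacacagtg
Zscan4f (chr7:11397665-11397914, plus strand): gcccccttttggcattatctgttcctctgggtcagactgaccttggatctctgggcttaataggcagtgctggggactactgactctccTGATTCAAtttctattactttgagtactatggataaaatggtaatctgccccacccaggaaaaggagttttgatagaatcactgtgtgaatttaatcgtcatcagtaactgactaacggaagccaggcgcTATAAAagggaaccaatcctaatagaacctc
Usp17la (chr7:104856766-104857015, plus strand): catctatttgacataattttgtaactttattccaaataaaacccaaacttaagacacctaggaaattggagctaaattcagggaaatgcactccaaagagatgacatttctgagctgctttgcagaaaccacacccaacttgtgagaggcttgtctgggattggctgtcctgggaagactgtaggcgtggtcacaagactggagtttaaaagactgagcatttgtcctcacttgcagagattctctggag

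TGATTCAA began 184 bases before the start of Zscan4c, 195 bases before that of Zscan4d and 161 bases before that of Zscan4f. It was not among the letters of the Usp17la and Zfp352 windows. Of 32851 promoter windows, each running from 250 bases before to 50 bases after the start, 0.581% held it, against 3 of these 5. TATAAA stood 54, 65 and 31 bases before the starts of Zscan4c, Zscan4d and Zscan4f, and in 13.6% of all windows. The 3 Zscan4 promoters share their sequence, so these are not separate observations: Zscan4c and Zscan4f were identical at 99.3% of 277 aligned bases, Zscan4c and Zscan4d at 97.2% of 289. A match of letters is a description of the sequence and not evidence of binding.

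The likeness of the copies bears on their counts, since fragments that mapped to several places were dropped. Between Zscan4 members, transcripts were identical at 96.9% (Zscan4d and Zscan4e) to 99.6% (Zscan4c and Zscan4f) of aligned bases. Of all stretches of 50 bases in a transcript, the share found in no other gene was 50.4% for Zscan4d, 36.4% for Zscan4a, 14.5% for Zscan4c, 8.4% for Zscan4e and 4.7% for Zscan4f. For the companions it was 92.9% (Zfp352), 83.2% (Tcstv1), 80.4% (Usp17la) and 68.6% (Tcstv3). The share depends on the length of the stretch: with 100 bases it was 70.4% for Zscan4d, 60.9% for Zscan4a, 27.2% for Zscan4c, 15.9% for Zscan4e and 10.5% for Zscan4f, and read length is not given in the sources used here. At both lengths less of Zscan4c, Zscan4e and Zscan4f than of the other copies can be counted, and levels of different copies are uncertain. A comparison of the same copy between groups uses the same stretches on both sides.

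Library totals ran from 19632704 to 45539021 fragments. Levels are counts scaled to library size (CPM). Pou5f1, a defining pluripotency factor of the labelled cell type, stood at 504 to 912 CPM in all 30 libraries. Libraries carry numbers in their names: the PDS5AB and untreated TIR1 libraries run up to 21 and all others start at 25. Treated TIR1 libraries are numbered 43 to 45, so in the TIR1 line number range and treatment cannot be told apart. The PDS5AB and WAPL treatment effects each lie within 1 range. What the numbers stand for is not given in the sources used here.

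Zscan4d was the copy with the most fragments in the PDS5AB line. In treated PDS5AB cells it stood at 28.7, 21.5 and 20.6 CPM, and in untreated PDS5AB cells at 11.2, 8.96 and 8.55 CPM. In untreated TIR1 cells it stood at 0.551, 0.484 and 1.03 CPM, and in treated TIR1 cells at 0.517, 0.452 and 0.397 CPM. All 6 PDS5AB libraries were thus above every TIR1 library, and the treated ones above the untreated ones. WAPL cells held 0.834, 0.317 and 0.315 CPM untreated and 3.34, 2.76 and 2.33 CPM treated, without overlap. The combined lines gave few fragments: 0, 1 and 0 counts in untreated and 1, 5 and 4 in treated PDS5AB-NIPBL libraries. WAPL-NIPBL libraries held 1, 5 and 2 counts untreated and 6, 10 and 16 treated.

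**Figure D1:**
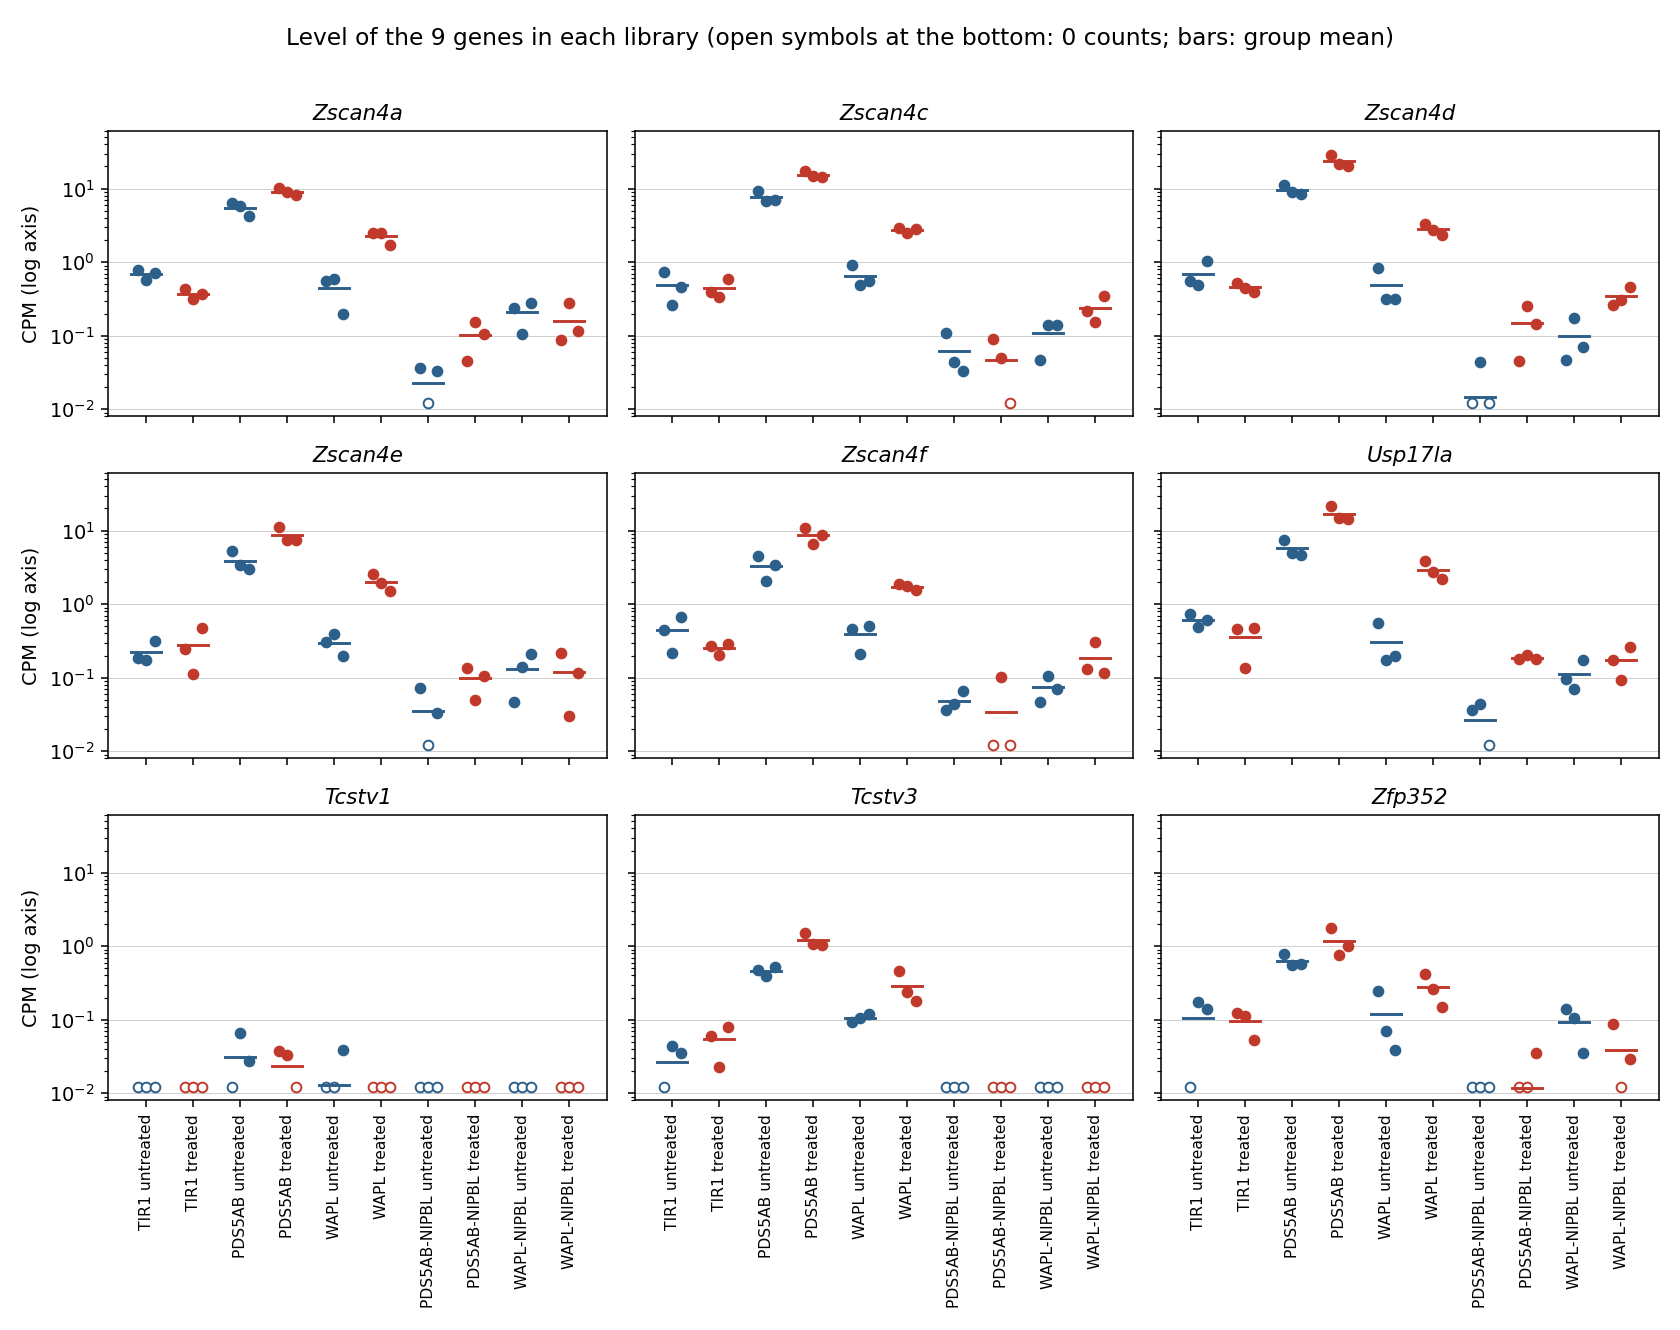
Level of each of the 9 genes in every library, in CPM on a log axis, by group (blue untreated, red treated); bars are group means and open symbols at the bottom are libraries with 0 counts. For 8 genes, Tcstv1 excepted, the highest library is a treated PDS5AB library, and the PDS5AB-NIPBL and WAPL-NIPBL libraries hold few or no counts.

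Usp17la was likewise highest in treated and then untreated PDS5AB cells. Its level was 7.55, 4.99 and 4.69 CPM in untreated and 21.4, 14.8 and 14.4 CPM in treated PDS5AB cells. In WAPL cells it was 0.556, 0.176 and 0.197 CPM untreated and 3.91, 2.73 and 2.21 CPM treated. TIR1 cells held 0.735, 0.484 and 0.603 CPM untreated and 0.456, 0.136 and 0.476 CPM treated. Treated libraries were above untreated ones in the PDS5AB and WAPL lines and below them in the TIR1 line, each without overlap. In PDS5AB-NIPBL cells 1, 1 and 0 fragments were counted untreated and 4, 4 and 5 treated, and in WAPL-NIPBL cells 2, 2 and 5 untreated and 4, 3 and 9 treated.

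Zscan4c stood at 9.31, 6.68 and 6.93 CPM in untreated and 17.5, 14.9 and 14.2 CPM in treated PDS5AB cells. In WAPL cells it went from 0.927, 0.494 and 0.551 CPM untreated to 2.91, 2.46 and 2.84 CPM treated. The groups did not overlap in either line. Zscan4a, the copy annotated as a pseudogene, stood at 6.31, 5.79 and 4.28 CPM in untreated and 10.1, 9.08 and 8.13 CPM in treated PDS5AB cells. In WAPL cells Zscan4a held 0.556, 0.599 and 0.197 CPM untreated and 2.49, 2.52 and 1.69 CPM treated, again without overlap. Zscan4e stood at 5.36, 3.37 and 3.04 CPM in untreated and 11.3, 7.42 and 7.54 CPM in treated PDS5AB cells, and Zscan4f at 4.55, 2.08 and 3.37 CPM and 11, 6.66 and 8.59 CPM. In the WAPL line Zscan4e rose from 0.309, 0.388 and 0.197 to 2.57, 1.94 and 1.51 CPM, and Zscan4f from 0.463, 0.212 and 0.512 to 1.88, 1.79 and 1.54 CPM. For both copies all treated libraries of these lines lay above all untreated ones.

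The remaining companions were scarce. Tcstv3 gave 14, 12 and 19 fragments in untreated and 40, 33 and 32 in treated PDS5AB libraries. It gave 3 fragments in each untreated WAPL library and 12, 8 and 6 in the treated ones, and 0 in all 12 libraries of the combined lines. Zfp352 gave 23, 17 and 21 fragments in untreated and 47, 23 and 31 in treated PDS5AB libraries, so that its groups overlapped in CPM (0.562 to 0.776 and 0.751 to 1.75). In WAPL libraries Zfp352 gave 8, 2 and 1 fragments untreated and 11, 9 and 5 treated. Tcstv1 was at the limit of detection, with 6 fragments in all 30 libraries: 3 in untreated PDS5AB, 2 in treated PDS5AB and 1 in untreated WAPL cells. No statement on a change of Tcstv1 is possible at this depth.

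Divided by exon length but not by the share of each transcript that can be counted, treated PDS5AB cells held 10.4 CPM per kb of Zscan4d, 6.83 of Zscan4c, 6.34 of Usp17la, 4.88 of Zscan4e, 4.47 of Zscan4f and 4.00 of Zscan4a. Tcstv3 stood at 1.55, Zfp352 at 0.515 and Tcstv1 at 0.0167 CPM per kb. Since the share of stretches of their own differs between the genes, from 4.7% for Zscan4f to 92.9% for Zfp352, these levels do not set an order of the genes.

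The 5 Zscan4 genes were summed to order the groups. The summed level was 65.8 CPM (59.1 to 78.7 in single libraries) in treated and 29.9 CPM (26.2 to 36.7) in untreated PDS5AB cells, then 11.5 CPM (9.92 to 13.2) in treated WAPL cells. These 3 groups were separate from each other and from all others. Untreated TIR1 at 2.53 CPM (1.72 to 3.19), untreated WAPL at 2.29 CPM (1.77 to 3.09) and treated TIR1 at 1.80 CPM (1.42 to 2.11) formed a middle range in which neighbours overlapped. The combined lines came last, from 1.05 CPM (0.908 to 1.16) in treated WAPL-NIPBL through 0.621 CPM (0.426 to 0.768) in untreated WAPL-NIPBL and 0.428 CPM (0.319 to 0.606) in treated PDS5AB-NIPBL to 0.182 CPM (0.131 to 0.251) in untreated PDS5AB-NIPBL. Among these, untreated WAPL-NIPBL and treated PDS5AB-NIPBL overlapped. All 9 Zscan4 genes and pseudogenes of the table together gave 94.4 CPM in treated and 42.5 CPM in untreated PDS5AB cells and 16 CPM in treated WAPL cells, so the 4 that are not members (Zscan4b and 3 pseudogene copies) do not set the order.

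**Figure D2:**
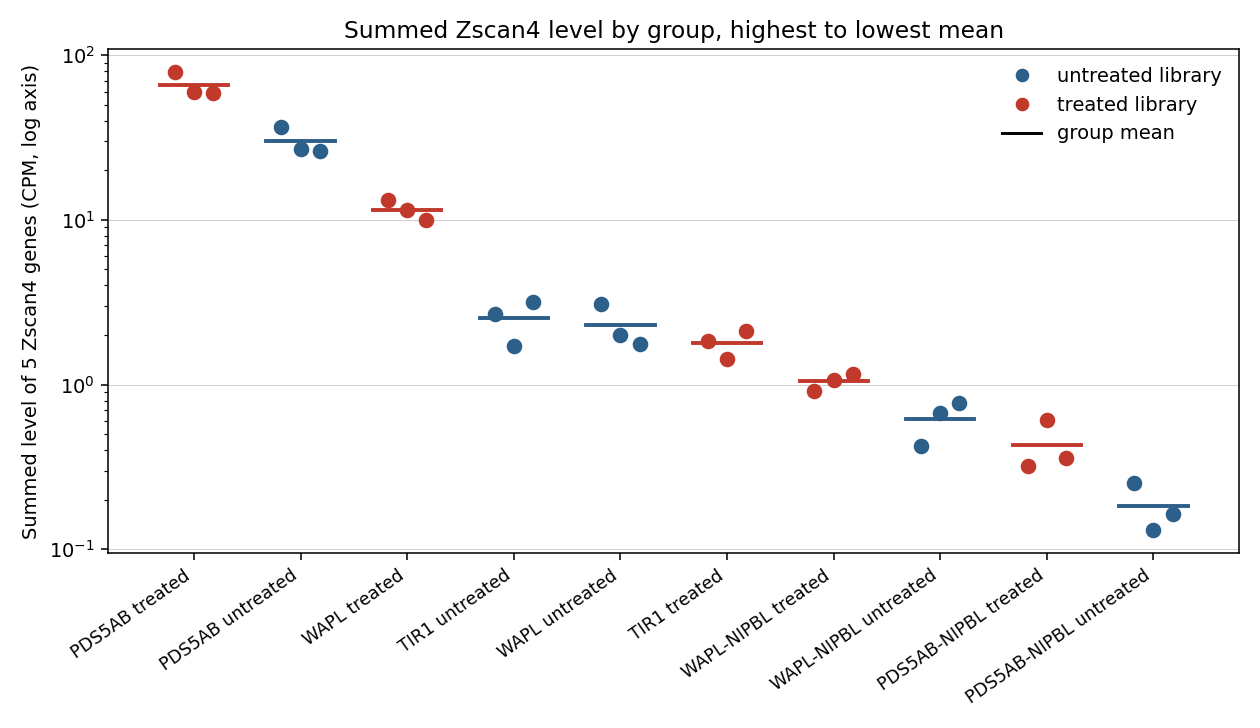
Summed level of the 5 Zscan4 genes in every library (CPM, log axis; blue untreated, red treated), with groups ordered by their mean (horizontal line in the group's colour). Treated and untreated PDS5AB cells (59.1 to 78.7 and 26.2 to 36.7 CPM) and treated WAPL cells (9.92 to 13.2 CPM) stand apart from the rest, and untreated PDS5AB-NIPBL cells are lowest (0.131 to 0.251 CPM).

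Differences were tested with edgeR's quasi-likelihood test and Benjamini-Hochberg adjustment over all 19868 genes that passed a filter on low counts, with calls made where the adjusted p fell below 0.05. The filter kept 8 of the 9 genes; Tcstv1 was not tested. Tcstv3 and Zfp352 had fewer than 10 counts in all but 1 of the libraries outside the PDS5AB line, so they passed largely through the group in which they are high, and counts over the 8 tested genes are given as descriptions.

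In PDS5AB cells 7 of the 8 tested genes rose on auxin treatment, in a comparison in which 46.0% of all tested genes were called and 25.8% were called higher. The median log2 change was 1.23 over the 8 genes and 0.04 over all tested genes. Usp17la rose most, by log2 1.55 (SE 0.235, edgeR adjusted p = 2.96e-06), which is 2.94-fold. For Zscan4f the rise was 1.39 on the log2 scale (SE 0.254, edgeR adjusted p = 4.39e-05), for Zscan4d 1.30 (SE 0.195, edgeR adjusted p = 2.6e-06), and for Zscan4e and Zscan4c 1.16 and 1.03 (edgeR adjusted p = 0.000508 and 5.5e-05). Zscan4a rose least of the copies, by log2 0.74 (SE 0.206, edgeR adjusted p = 0.00375). Tcstv3 also rose, by 1.36 (SE 0.352, edgeR adjusted p = 0.00299), while Zfp352 stood 0.87 higher without passing the test (SE 0.436, edgeR adjusted p = 0.106).

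WAPL cells had the same 7 of 8 genes called higher on treatment, where 32.8% of all tested genes were called and 17% higher. The median was log2 2.19 over the 8 genes and 0.00 over all genes. Usp17la again had the largest change, log2 3.16 (SE 0.361, edgeR adjusted p = 4.93e-08) or 8.96-fold. Over the 12 alternatives this change ran from log2 2.88 to 3.94. The log2 change was 2.71 for Zscan4e (SE 0.387, edgeR adjusted p = 2.28e-06), and the other copies followed, Zscan4d by 2.45 (edgeR adjusted p = 1.57e-07), Zscan4a by 2.26 (edgeR adjusted p = 3.95e-07), Zscan4f by 2.12 (edgeR adjusted p = 2.8e-05) and Zscan4c by 2.03 (edgeR adjusted p = 5.55e-07). For Tcstv3 the change of log2 1.40 (SE 0.530) had an edgeR adjusted p of 0.0463 and lost its call in 10 of 12 alternatives, with adjusted p from 0.0313 to 0.217, and 0.0548 with the replicate block. Zfp352 stood 1.08 higher (SE 0.659, edgeR adjusted p = 0.222). Treated WAPL cells also exceeded treated TIR1 cells in 7 of 8 genes (39.7% of all genes called, 19.9% higher), Zfp352 being the exception at an edgeR adjusted p of 0.0760.

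Auxin alone, in the TIR1 line, gave 0 calls among the 8 genes in edgeR and in DESeq2, with 1 gene at an unadjusted p under 0.05, where 19.9% of all genes were called. Zscan4a was lower by log2 0.90 without passing the test (0.772, 0.572 and 0.709 CPM untreated, 0.426, 0.317 and 0.370 CPM treated; edgeR adjusted p = 0.0607), and its groups did not overlap. Usp17la was lower by log2 0.83 (edgeR adjusted p = 0.179), and its log2 change ran from -1.11 to -0.390 over the alternatives. Both passed the test as lower once the replicate block was fitted (edgeR adjusted p = 0.0328 for Zscan4a and 0.0497 for Usp17la; 35.6% of all genes called), but in this line the numbers do not pair the libraries.

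The responses of the PDS5AB and WAPL lines were set against that of the TIR1 line and against each other by testing the difference of the treatment effects. The TIR1 effect itself had a median of log2 -0.40 over the 8 tested genes. Number range and treatment cannot be told apart in that line. PDS5AB exceeded TIR1 in 5 of 8 genes (26.3% of all genes called, 13.9% higher) and WAPL exceeded TIR1 in 6 of 8 (20.7% called, 9.86% higher). Both contrasts use the same 6 TIR1 libraries and are not independent of each other. For Usp17la these differences were log2 2.38 (SE 0.492, edgeR adjusted p = 0.000561) and 3.99 (SE 0.577, edgeR adjusted p = 6.9e-06), and for Zscan4d 1.93 (edgeR adjusted p = 0.000839) and 3.08 (edgeR adjusted p = 1.97e-05). Zscan4c had the weakest PDS5AB call, 1.21 (edgeR adjusted p = 0.0277), which was lost in 6 of 18 alternatives, each leaving out 1 library, with the lowest value, 0.80, without replicate 1 of untreated TIR1 (edgeR adjusted p = 0.247). Zscan4e passed this test for WAPL, with a difference of 2.47 (edgeR adjusted p = 0.0118, and 0.0842 without replicate 3 of untreated TIR1), and stood at 0.92 for PDS5AB (edgeR adjusted p = 0.291).

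The proportional change was smaller in the PDS5AB than in the WAPL line for 5 of 8 genes (12.5% of all genes called, 5.11% in this direction). These were Usp17la (log2 -1.61, SE 0.447, edgeR adjusted p = 0.0149), Zscan4e (-1.55, edgeR adjusted p = 0.0291), Zscan4a (-1.52, SE 0.361, edgeR adjusted p = 0.00442), Zscan4d (-1.15, edgeR adjusted p = 0.0341) and Zscan4c (-1.0, edgeR adjusted p = 0.0428). The levels themselves were higher in PDS5AB than in WAPL libraries for these genes, untreated and treated alike, without overlap. The count of 5 fell to 2 without replicate 1 of untreated PDS5AB, replicate 2 or 3 of treated PDS5AB, replicate 2 of untreated WAPL or replicate 1 of treated WAPL, and to 1 without replicate 3 of untreated WAPL. The lines lie in different ranges of library numbers, and no value within 1 range exists for this contrast.

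**Figure D3:**
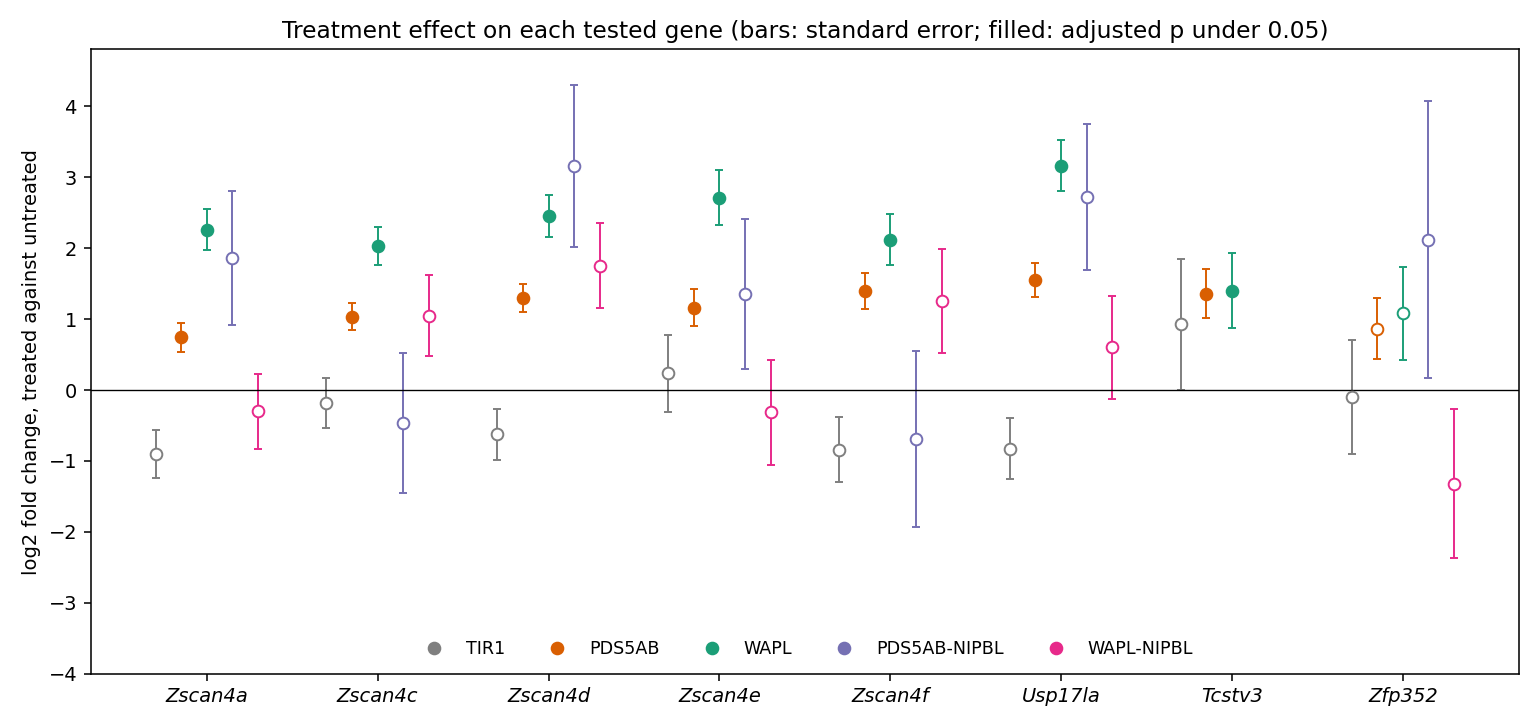
Log2 fold change, treated against untreated, of each of the 8 tested genes in the 5 lines, with standard errors; filled points have an adjusted p under 0.05. The PDS5AB and WAPL lines are filled for 7 genes, the TIR1 points lie below 0 for 6 of the 8 genes, and the combined lines have wide errors because few fragments were counted; Tcstv3, with 0 counts there, has no point for them.

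Before any treatment, PDS5AB cells held more of the 5 Zscan4 genes and Usp17la than TIR1 cells (32% of all genes called, 15.5% higher). Tcstv3 and Zfp352, which passed the filter largely through the PDS5AB line, were also called higher but are given by their fragments only. These libraries share 1 range of numbers. The difference was 16.7-fold for Zscan4e (log2 4.06, SE 0.393, edgeR adjusted p = 1.38e-09), 15.2-fold for Zscan4c (log2 3.93, SE 0.267, edgeR adjusted p = 8.99e-13) and 13.6-fold for Zscan4d (log2 3.76, SE 0.266, edgeR adjusted p = 2.06e-12). It was log2 3.22 for Usp17la, 2.97 for Zscan4a and 2.86 for Zscan4f (edgeR adjusted p = 1.77e-09, 2.35e-10 and 6.99e-08). Tcstv3 had 45 fragments against 2, a ratio of 18.3 (exact 95% interval 4.78 to 156, counting error only), and Zfp352 61 against 8, a ratio of 6.20 (2.95 to 15.0). As point values, the untreated difference from TIR1 cells was larger than the change on auxin for each of the 5 Zscan4 genes and Usp17la. Untreated WAPL cells gave 0 calls against untreated TIR1 cells in edgeR and in DESeq2, with 1 gene at an unadjusted p under 0.05, where 14% of all genes were called. Usp17la was called lower without replicate 1 of untreated WAPL (edgeR adjusted p = 0.0408, against 0.191 with all libraries).

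The untreated combined lines lay at the other end. Untreated PDS5AB-NIPBL cells were lower than untreated PDS5AB cells in the 5 Zscan4 genes and Usp17la (32.7% of all genes called, 16.6% lower), and Tcstv3 and Zfp352, called lower too, are again given by their fragments. The 5 Zscan4 genes gave 2850 fragments against 15, a ratio of 161 (exact 95% interval 97.3 to 288). For single genes the ratio was 773 (138 to 30557; 913 against 1 fragment) for Zscan4d, 231 (63.5 to 1909) for Usp17la, 219 (60.3 to 1812) for Zscan4a, 123 (52.6 to 381) for Zscan4c, 105 (35.5 to 510) for Zscan4e and 67.7 (26.2 to 250) for Zscan4f. Tcstv3 and Zfp352 gave 45 and 61 fragments against 0. The lower limits of their exact 95% intervals were 9.91-fold and 13.6-fold. Both lines carry the same AID fusions, but they lie in different ranges of library numbers, and clone, NIPBL-FKBP, RAD21-Halo and number range cannot be told apart.

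Against untreated TIR1 cells, untreated PDS5AB-NIPBL cells were lower in 7 of 8 genes (34.3% of all genes called, 17.8% lower), with 202 against 15 summed Zscan4 fragments, a ratio of 14 (8.30 to 25.5). Zfp352 gave 8 against 0 fragments (lower limit of the exact 95% interval 1.78-fold). Its groups overlapped, as replicate 1 of untreated TIR1 also had 0 counts. Zscan4e gave 18 against 3 fragments (ratio 6.25, 1.82 to 33.1). The calls of Zfp352 and Zscan4e (edgeR adjusted p = 0.0263 and 0.0247) were lost in 6 and 3 of 12 alternatives. For Zfp352 these included leaving out any 1 untreated PDS5AB-NIPBL library or replicate 2 or 3 of untreated TIR1. For Zscan4e they were leaving out replicate 3 of untreated TIR1 or replicate 2 or 3 of untreated PDS5AB-NIPBL. Untreated WAPL-NIPBL cells were lower than untreated TIR1 cells in 5 of 8 genes (28% of all genes called, 14.6% lower), namely Zscan4a, Zscan4c, Zscan4d, Zscan4f and Usp17la. Their summed Zscan4 ratio was 4.04 (2.95 to 5.62; 202 against 50 fragments). Within 1 range of library numbers, untreated WAPL-NIPBL cells were lower than untreated WAPL cells in 4 of 8 genes (10.7% of all genes called, 5.67% lower). These were Zscan4c (log2 -2.50, SE 0.470, edgeR adjusted p = 0.00041), Zscan4d (-2.26, edgeR adjusted p = 0.00664), Zscan4f (-2.30, edgeR adjusted p = 0.0164) and Tcstv3 (edgeR adjusted p = 0.0168). Tcstv3 gave 9 against 0 fragments, with 1.79-fold as the lower limit of the exact 95% interval. Zscan4c passed in all 12 alternatives. Zscan4d did not pass without replicate 1 of untreated WAPL (edgeR adjusted p = 0.134). Zscan4f did not pass without replicate 1 or 3 of untreated WAPL or 1 or 3 of untreated WAPL-NIPBL (edgeR adjusted p up to 0.0704). Tcstv3 did not pass without replicate 2 or 3 of untreated WAPL-NIPBL or with the compared groups fitted alone (edgeR adjusted p up to 0.0645). The count fell to 2 without replicate 1 of untreated WAPL or replicate 3 of untreated WAPL-NIPBL.

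Treatment of the combined lines left all 9 genes low. The summed Zscan4 ratio of treated PDS5AB to treated PDS5AB-NIPBL cells was 157 (109 to 234; 5742 against 29 fragments), and that of treated WAPL to treated WAPL-NIPBL cells 10.7 (8.69 to 13.3; 1063 against 96). In PDS5AB-NIPBL cells the sum went from 15 to 29 fragments (ratio 2.26, 1.17 to 4.53) and in WAPL-NIPBL cells from 50 to 96 (ratio 1.66, 1.17 to 2.39). In both lines every treated library was above every untreated one in the sum. The intervals cover counting error only.

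Of single genes, 0 of 8 were called in PDS5AB-NIPBL cells by edgeR (19.5% of all genes called), with 2 at an unadjusted p under 0.05. These were Zscan4d (10 against 1 fragment, ratio 11.7, 1.66 to 507; edgeR adjusted p = 0.0504) and Usp17la (13 against 2, ratio 7.59, 1.72 to 69.3; edgeR adjusted p = 0.0621). Both were called by DESeq2 (adjusted p = 0.0342 and 0.0422) and when the replicate block was fitted (edgeR adjusted p = 0.0181 and 0.00720; 32.1% of all genes called), and 1 gene was called without replicate 2 of untreated or replicate 1 of treated PDS5AB-NIPBL. In WAPL-NIPBL cells edgeR called 0 of 8 (8.57% of all genes called), with 1 at an unadjusted p under 0.05. That gene was Zscan4d, with 32 against 8 fragments, a ratio of 3.46 (1.56 to 8.70; edgeR adjusted p = 0.0670), which DESeq2 called (adjusted p = 0.0289), as did edgeR with the block (adjusted p = 0.0156; 20.9% of all genes called). Over the 8 tested genes the median log2 change was 1.60 for PDS5AB-NIPBL and 0.302 for WAPL-NIPBL, where Tcstv3, without fragments, entered as 0. With so few fragments, the lack of calls does not show that a response was absent.

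Whether the response was smaller in the combined lines was tested as a difference of effects. Against the PDS5AB effect, the PDS5AB-NIPBL effect differed for 0 of 8 genes in edgeR and in DESeq2, with 0 at an unadjusted p under 0.05 (9.46% of all genes called). Counts in PDS5AB-NIPBL cells were too low for a usable standard error of this difference. There the treated to untreated ratio had exact 95% intervals of 0.622 to 16.3 for Zscan4e and 0.109 to 3.60 for Zscan4c, counting error only. A several-fold difference in either direction could therefore have been missed at this depth. The WAPL-NIPBL effect was smaller than the WAPL effect for 2 of 8 genes (5.19% of all genes called, 2.16% lower). Zscan4a differed by log2 -2.57 (SE 0.623, edgeR adjusted p = 0.0114) and Zscan4e by -3.02 (SE 0.890, edgeR adjusted p = 0.0414), with Usp17la at -2.56 (edgeR adjusted p = 0.111, and 0.00786 with the replicate block). Fitting the compared groups alone gave 0 calls. The count fell to 0 without replicate 3 of untreated WAPL-NIPBL, and to 1 without replicate 3 of untreated WAPL, 1 or 2 of treated WAPL, 2 of untreated WAPL-NIPBL or 2 or 3 of treated WAPL-NIPBL. Against the TIR1 effect, 2 genes exceeded it in PDS5AB-NIPBL cells (10.1% of all genes called, 5.28% higher) and 1 in WAPL-NIPBL cells (7.04% called, 3.10% higher). These calls rested on single libraries. In PDS5AB-NIPBL cells Zscan4d did not pass without replicate 3 of untreated or 2 or 3 of treated TIR1, 1 or 3 of untreated or 2 or 3 of treated PDS5AB-NIPBL, and Usp17la did not pass without replicate 1 of untreated or 2 of treated TIR1 or without any 1 of the PDS5AB-NIPBL libraries. In WAPL-NIPBL cells Zscan4d did not pass without replicate 3 of untreated or 2 or 3 of treated TIR1, 1 or 3 of untreated or 3 of treated WAPL-NIPBL.

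The 5 copies contributed unequal shares of the Zscan4 fragments, and the shares differed between groups. In treated PDS5AB cells Zscan4d made up 35.8% of 5742 fragments (exact binomial 95% interval 34.6 to 37.1), Zscan4c 23.7%, Zscan4a 13.9% (13 to 14.8), and Zscan4e and Zscan4f 13.3% each. In untreated PDS5AB cells Zscan4d made up 32% of 2850 fragments (30.3 to 33.8) and Zscan4a 18.1% (16.7 to 19.6). The share of Zscan4d in single libraries was 34.9% to 36.4% treated and 30.5% to 33.3% untreated, and that of Zscan4a 12.9% to 15.2% treated and 16.4% to 21.5% untreated, without overlap for either copy. In treated WAPL cells Zscan4d made up 24.3% of 1063 fragments (21.7 to 27), Zscan4c 23.9% and Zscan4a 19.5% (17.1 to 22), so no copy led. Untreated TIR1 cells, with 202 fragments, had Zscan4d at 27.2% (21.2 to 33.9) and Zscan4a at 26.7% (20.8 to 33.4). The intervals cover counting error only, and no test between groups was made of the shares. Less of Zscan4c, Zscan4e and Zscan4f than of the other copies can be counted, so shares within a group do not set an order of the copies.

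**Figure D4:**
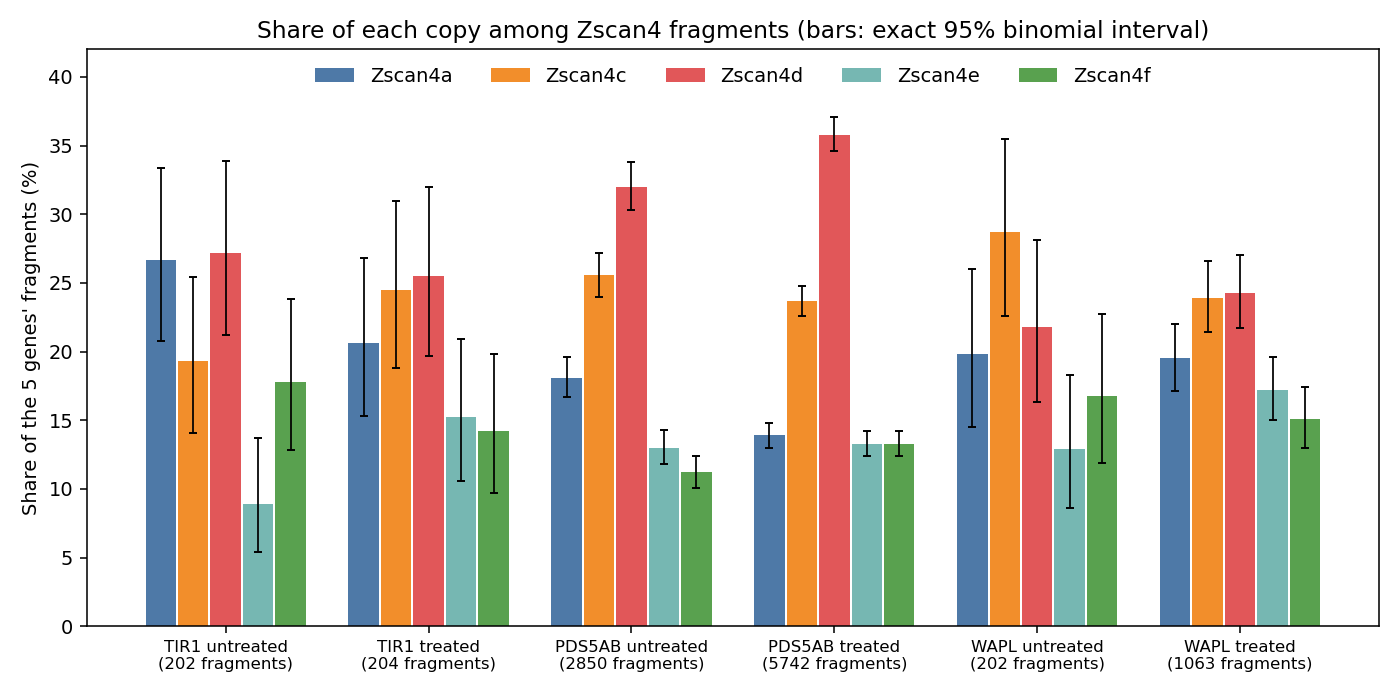
Share of each copy (colours) among the fragments of the 5 Zscan4 genes, in percent, in the groups with 202 or more fragments; error bars are exact 95% binomial intervals. Zscan4d has the largest share of counted fragments in untreated and treated PDS5AB cells (32% and 35.8%), and in treated WAPL cells Zscan4d and Zscan4c are nearly level (24.3% and 23.9%). The copies differ in how much of each can be counted.

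Other genes of the 2-cell programme were followed through a list of 40, of which 28 were tested. The list was chosen with earlier results of these data known, and its copies share sequence with the members. The filter on low counts left out 12 genes, and 7 of the 28 tested ones had 10 or more counts in fewer than 3 of the 24 libraries outside the PDS5AB line. Such genes passed largely through the PDS5AB libraries, so counts against that line are descriptions and do not speak for the whole list. In PDS5AB cells 23 rose and 0 fell on treatment, with a median log2 change of 1.18, where 25.8% of all tested genes were called higher. Usp17le, Usp17lc and Gm21761 had the smallest adjusted p: Usp17le went from 5.70 to 14.8 CPM, a log2 change of 1.38 (SE 0.223, edgeR adjusted p = 8.02e-06), Usp17lc from 2.52 to 7.99 CPM (log2 1.66, edgeR adjusted p = 8.63e-06) and Gm21761 from 7.39 to 16.8 CPM (log2 1.19, edgeR adjusted p = 1.8e-05). Tmem92, Lmx1a, Gm4340, BC080695 and Obox6 did not pass the test. In WAPL cells 19 rose and 1 fell, with a median of log2 1.88, where 17% of all genes were called higher. Usp17lb (0.606 to 2.81 CPM, log2 2.18, SE 0.276, edgeR adjusted p = 2.93e-07), Usp17le (log2 2.45, edgeR adjusted p = 1.03e-06) and Usp17lc (log2 2.26, edgeR adjusted p = 1.66e-05) had the smallest adjusted p there. The gene that fell was Obox6, an oocyte homeobox gene, from 4.44 to 2.53 CPM (log2 -0.82, edgeR adjusted p = 0.00389).

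In TIR1 cells 0 genes of that list rose, where 10.4% of all genes did, and 1 fell (Gm21761, log2 -1.50, edgeR adjusted p = 0.00119; 2 genes fell with the replicate block, where 17.2% of all genes did, by DESeq2, without the low-count filter, and without replicate 1 or 3 of treated TIR1). In PDS5AB-NIPBL cells 3 rose (Zscan4-ps1, Gm21761 and Ubtfl1; 11.4% of all genes rose) and 0 fell, and in WAPL-NIPBL cells edgeR and DESeq2 called 0, with 0 at an unadjusted p under 0.05 in edgeR. The PDS5AB-NIPBL count of 3 fell to 1 when the compared groups were fitted alone and without replicate 2 or 3 of untreated or 3 of treated PDS5AB-NIPBL. The list's median log2 change was 1.02 for PDS5AB-NIPBL, 0.68 for WAPL-NIPBL and -0.48 for TIR1. Genes without fragments in a line entered its median as 0. Most list genes were scarce in the combined lines, so the low number of calls there does not show that a response was absent. Before treatment, 25 of the 28 were higher and 1 lower in PDS5AB than in TIR1 cells (15.5% of all genes higher), and the 28 tested genes were lower in PDS5AB-NIPBL than in PDS5AB cells (16.6% of all genes lower). Against the TIR1 effect, fewer genes of the list passed than on treatment alone: the PDS5AB effect exceeded it for 11 of the 28 and the WAPL effect for 13, and 0 were below it (13.9% and 9.86% of all genes higher). Between the PDS5AB and WAPL effects 2 of the 28 differed (12.5% of all genes called), Usp17lb with a smaller and Obox6 with a higher PDS5AB effect, and the list's median difference was log2 -0.55. Duxf3, the gene of DUX, gave 38 fragments in all 30 libraries together and was not tested.

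Of 7 known activators of the programme, 6 were tested, and 4 fell and 0 rose on treatment in each of the PDS5AB and WAPL lines, where 20.2% and 15.8% of all tested genes were called lower. Dppa4, which encodes a chromatin-bound DPPA factor, went down from 43.7 to 20.6 CPM in PDS5AB cells, a log2 change of -1.08 (SE 0.0834, edgeR adjusted p = 1.72e-11), and from 55.8 to 31.8 CPM in WAPL cells (log2 -0.81, edgeR adjusted p = 4.76e-09). Tbx3, a T-box factor, fell by log2 0.42 and 0.83 (edgeR adjusted p = 4.53e-05 and 1.12e-09). In PDS5AB cells Trp53, the gene of p53, fell by log2 0.46 (edgeR adjusted p = 0.00175), a call lost in 1 of 12 alternatives. Its log2 change ran from -0.625 to -0.247 over these, and its groups overlapped (329 to 496 CPM untreated, 246 to 342 CPM treated). Dppa3 fell in WAPL cells (6.75 to 4.02 CPM, log2 -0.77, edgeR adjusted p = 0.00440; lost in 2 of 12 alternatives). In TIR1 cells Dppa3 rose by log2 1.51 (edgeR adjusted p = 1.43e-06) and Dppa4 fell by log2 0.45 (edgeR adjusted p = 0.000148), where 10.4% of all genes rose and 9.59% fell. With the replicate block 1 activator rose and 3 fell (18.4% and 17.2% of all genes). In PDS5AB-NIPBL cells 2 activators fell (8.06% of all genes lower), and 5 with the block (15.3% of all genes lower). In WAPL-NIPBL cells 2 fell and 0 rose (3.45% of all genes lower), Dppa4 and Tbx3. Against the TIR1 effect 3 activators were lower in each of the PDS5AB and WAPL lines (12.4% and 10.9% of all genes lower).

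Of 24 genes known to restrain the programme, all tested, 17 fell and 2 rose in treated PDS5AB cells, with a median of log2 -0.30, where 20.2% of all tested genes were called lower. Trim28, which encodes the corepressor KAP1, stood at 1808 CPM before and 722 CPM after treatment, a log2 change of -1.32 (SE 0.106, edgeR adjusted p = 3.67e-11). Ncl, which encodes nucleolin, fell from 2753 to 1639 CPM (log2 -0.75, edgeR adjusted p = 8.06e-11), and Lin28a, an RNA-binding protein gene, from 163 to 79.6 CPM (log2 -1.04, edgeR adjusted p = 4.97e-08). In WAPL cells 15 fell and 2 rose (median log2 -0.25; 15.8% of all genes called lower), with the smallest adjusted p for the chromatin assembly gene Chaf1b (103 to 62.2 CPM, log2 -0.73, edgeR adjusted p = 5.8e-09), then Ncl (log2 -0.35, edgeR adjusted p = 4.56e-05) and the histone methyltransferase gene Setdb1 (log2 -0.28, edgeR adjusted p = 0.000127). Trim28 went from 1884 to 1316 CPM in WAPL cells (log2 -0.52, edgeR adjusted p = 0.00025). The 2 that rose in both lines were E2f6 and Smchd1. The WAPL count of 15 fell to 8 when the compared groups were fitted alone, and to 10 without replicate 1 of untreated WAPL.

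Against the TIR1 effect 14 of the 24 repressors were lower in PDS5AB and 7 in WAPL cells, and 0 were higher (12.4% and 10.9% of all genes lower). Some repressor genes also fell in the other lines. In TIR1 cells 3 fell, Trim28 (log2 -0.40, edgeR adjusted p = 0.00675), Lin28a (log2 -0.56, edgeR adjusted p = 0.00140) and Sumo2 (log2 -0.27, edgeR adjusted p = 0.00584), and 1 rose, where 9.59% of all genes were called lower. With the replicate block, whose numbers do not pair the TIR1 libraries, 5 fell and 5 rose (17.2% of all genes lower and 18.4% higher). In PDS5AB-NIPBL cells 7 fell and 1 rose (8.06% of all genes lower), and in WAPL-NIPBL cells 2 fell and 1 rose (3.45% lower). With the replicate block 12 and 11 fell, where 15.3% and 10.1% of all genes were called lower. The WAPL-NIPBL count of 2 fell to 0 without replicate 2 of untreated or 3 of treated WAPL-NIPBL, and to 1 without replicate 1 or 3 of untreated or 2 of treated WAPL-NIPBL. Trim28 fell by log2 0.47 in PDS5AB-NIPBL cells (edgeR adjusted p = 0.00151).

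**Figure D5:**
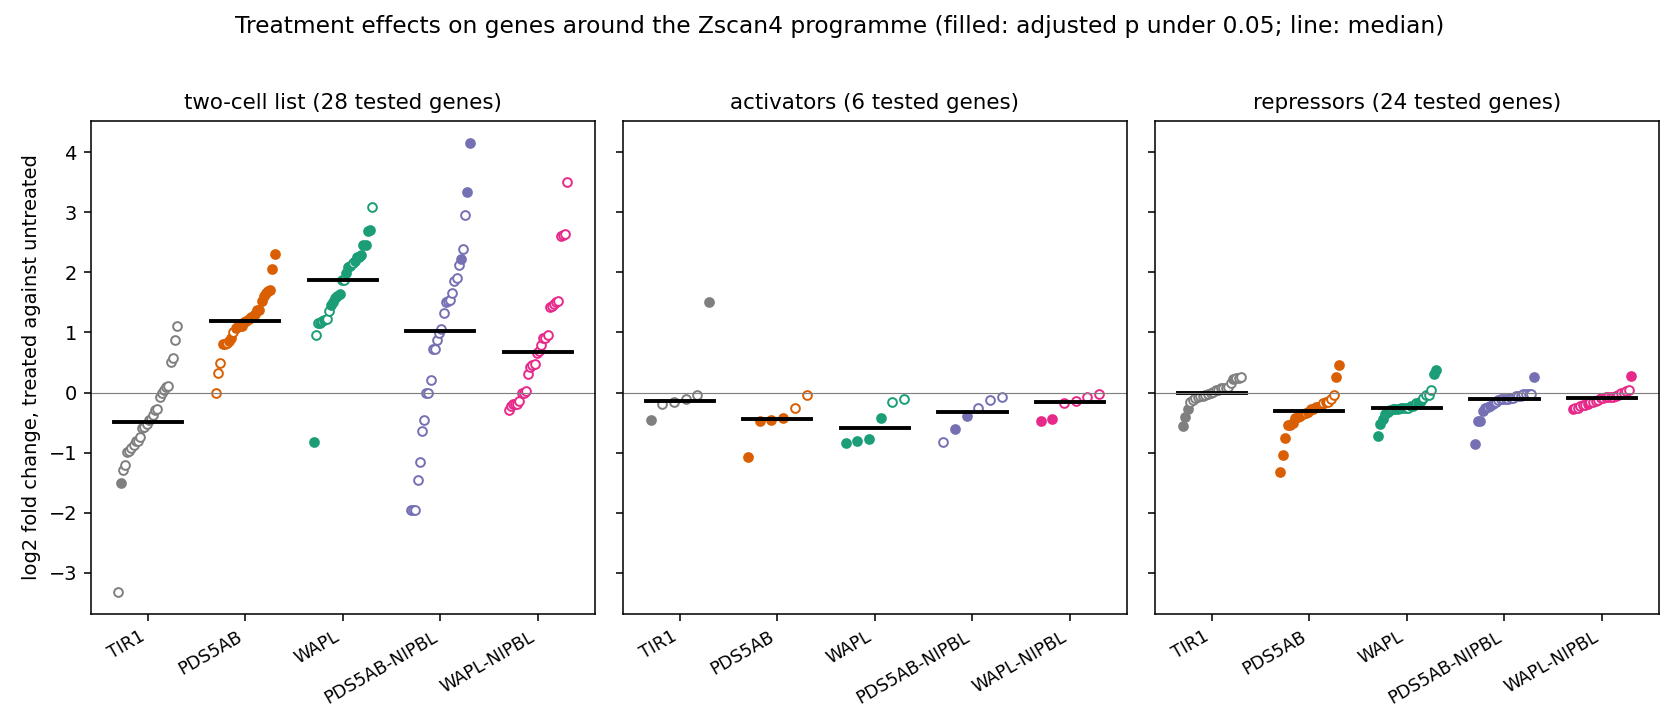
Log2 fold change, treated against untreated, of each tested gene of the 2-cell list (28 genes), the activators (6) and the repressors (24) in the 5 lines; filled points have an adjusted p under 0.05 and lines are medians. In the PDS5AB and WAPL lines most 2-cell genes lie above 0 (medians 1.18 and 1.88), Obox6 in WAPL cells being called lower, while most activators and repressors lie below it.

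Markers of other cell states were read beside these changes, and their part in the result was not tested. The summed level of 8 pluripotency markers was 6651 CPM in untreated and 4394 CPM in treated PDS5AB cells, 6396 and 5040 CPM in WAPL cells, and 6484 and 6446 CPM in TIR1 cells. It was also lower after treatment in the combined lines, at 6886 and 5715 CPM in PDS5AB-NIPBL and 6421 and 5403 CPM in WAPL-NIPBL cells, without overlap. The 5 primitive endoderm markers summed to 7.12 CPM (6.15 to 8.83) untreated and 14.4 CPM (12.9 to 16.7) treated in PDS5AB cells, 2.99 and 5.47 CPM in WAPL cells, and 2.15 and 2.40 CPM in TIR1 cells. They also stood higher after treatment in the combined lines, going from 3.27 to 5.17 CPM in PDS5AB-NIPBL and from 2.38 to 4.15 CPM in WAPL-NIPBL cells, where the summed Zscan4 counts given above were also higher after treatment. The 6 feeder fibroblast markers summed to 13.8 CPM (13.4 to 14.1) untreated and 4.83 CPM (4.29 to 5.33) treated in WAPL cells, 17.9 and 20.9 CPM in PDS5AB cells, and 15.6 and 11.5 CPM in TIR1 cells. They were lower after treatment in WAPL, TIR1 and WAPL-NIPBL cells (10.3 to 12.4 CPM untreated and 7.37 to 8.13 CPM treated in the last) and higher in PDS5AB cells, each without overlap, and overlapped in PDS5AB-NIPBL cells, with Postn, Lum and Dcn at 0 in 17, 11 and 23 libraries. The 5 trophoblast markers summed to 24.2 and 17.2 CPM in PDS5AB cells, 11.9 and 9.29 CPM in WAPL cells, 11.3 and 17.3 CPM in TIR1 cells, 27.9 and 22.9 CPM in PDS5AB-NIPBL cells, and 11.7 and 13.3 CPM in WAPL-NIPBL cells, untreated and treated. Eomes and Cdx2, with group means up to 21 and 10.3 CPM, make up most of this sum, while the scarcer Hand1 and Gata3 had their highest group means, 1.21 and 1.28 CPM, in treated PDS5AB cells.

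Within groups, genes that deviated together with the Zscan4 copies from library to library were sought over the 30 libraries, as a description. The likeness is Pearson's r between a gene and the mean of the 5 copies, in log2 CPM after subtracting each group's mean; libraries share depth, and few degrees of freedom remain per group. Same-numbered libraries of the degron lines also share deviations, which were not removed, so the 30 libraries are not independent. Usp17la, at r = 0.673, ranked 7 among all tested genes, while copies that form the mean themselves ranked from 8 (Zscan4d, 0.664) to 71 (Zscan4e, 0.551) and 284 (Zscan4a, 0.455), so the rank carries little weight. Tcstv3 (0.259) and Zfp352 (0.146), with few counts, did not follow. The 10 leading genes outside the set included Lrrc74a (0.794), Gm13423 (0.702), Ntn4 (0.694), S100a16 (0.679), H2-Eb2 (0.678), Tbx2 (0.653), Dcc (0.650), Gm9308 (0.639) and Gad1os (0.638). None of the 10 belongs to the 2-cell list. Of these 10, 1 was among the leading 10 over the 12 PDS5AB and TIR1 libraries alone and 2 over the other 18, so the order depends on the libraries used.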

How the data were processed

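Gene-level raw counts of fragments were deposited by the authors, made with featureCounts 2.0.1 in paired-end mode on GENCODE vM23 gene models (GRCm38), per the file headers. The recorded command sets no option for strand and none that keeps fragments with several alignments or several genes, so strand was ignored and those fragments were dropped. STAR 2.7.7a, cutadapt and deepTools are named in the submitters' processing notes. The labels' protocols describe stranded polyA libraries; read length is not given in the sources used here. Symbols were matched for 55154 of 55421 identifiers (99.5%).

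All 30 libraries entered 1 edgeR 4.0.16 model (R 4.3.3) with 10 group means: filterByExpr (minimum count 10; 19868 genes), TMM factors 0.950 to 1.13, quasi-likelihood F-test, 20 residual degrees of freedom, common coefficient of variation 9.15%, and 19 contrasts. On simulated data for the PDS5AB effect with 19868 genes, 67 of 100 genes changed 2-fold and 89 of 100 changed 4-fold were recovered, with 17 false calls. The simulation changed few genes, up and down alike, whereas 46.0% of genes were called in the PDS5AB data. Its figures therefore do not give the recovery or false calls of the real test. Each standard error (SE) is the absolute log2 change divided by the square root of F, which is approximate at low counts. Alternatives were RLE factors, DESeq2 1.42.0, no filter, a robust fit, compared groups alone, a replicate block and leaving out each library. Same-numbered libraries deviated together in every pair of the 4 degron lines (r 0.109 to 0.333) and not in TIR1 (-0.0102 to 0.0574), so the block is printed where it changed a member's call or moved a list's count on treatment by over 1.5 times.

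Intervals of ratios and shares are exact 95% binomial intervals of summed counts. Where a group had no fragments, only the lower limit is given. Replicates correlated at r of 0.987 or more. Sequences were compared with Biopython 1.88 using RefSeq and GENCODE vM21 transcripts. Genes named are all 9 members, the 3 genes of each list with the smallest adjusted p in the PDS5AB and WAPL effects, and the 10 leading genes by likeness, of which 1 is not reported here; other genes are named where a count was small, after their values were seen. The members and lists were chosen with earlier results of these data known.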

Additional observations from a re-analysis of the deposited data

Results flagged for a closer look

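Treatment effects that differed between lines are given here with the test of the difference itself (edgeR's quasi-likelihood test, Benjamini-Hochberg adjustment over all tested genes; log2 scale, 3 libraries in each group). The PDS5AB effect exceeded the TIR1 effect for Zscan4a by 1.64 (edgeR adjusted p = 0.00261), for Zscan4c by 1.21 (0.0277), for Zscan4d by 1.93 (0.000839), for Zscan4f by 2.23 (0.00199) and for Usp17la by 2.38 (0.000561).

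The WAPL effect exceeded the TIR1 effect for Zscan4a by 3.17 (edgeR adjusted p = 6.08e-06), for Zscan4c by 2.21 (0.000621), for Zscan4d by 3.08 (1.97e-05), for Zscan4e by 2.47 (0.0118), for Zscan4f by 2.96 (0.000426) and for Usp17la by 3.99 (6.9e-06). In these contrasts the TIR1 libraries of treated and untreated cells lie in different ranges of library numbers.

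The PDS5AB-NIPBL effect exceeded the TIR1 effect for Zscan4d by 3.78 (edgeR adjusted p = 0.0398) and for Usp17la by 3.55 (0.0379), and the WAPL-NIPBL effect exceeded it for Zscan4d by 2.37 (0.0350). These rest on 32 fragments or fewer per group of the combined lines, and Zscan4d in untreated PDS5AB-NIPBL cells on 1 fragment.

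The WAPL-NIPBL effect was below the WAPL effect for Zscan4a (-2.57, edgeR adjusted p = 0.0114) and Zscan4e (-3.02, 0.0414). The PDS5AB effect was below the WAPL effect for Zscan4a (-1.52, edgeR adjusted p = 0.00442), Zscan4c (-1.0, 0.0428), Zscan4d (-1.15, 0.0341), Zscan4e (-1.55, 0.0291) and Usp17la (-1.61, 0.0149).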

How the results depend on the processing

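Over the alternatives, 1265 of 1379 values of single genes kept their direction and their side of the threshold, 91 lost a call, 23 gained one and 0 reversed. Counts of called members, out of 8 tested, that moved by more than 1.5 times were these. With the replicate block the TIR1 effect had 2 calls in place of 0, the PDS5AB-NIPBL effect 2 in place of 0, the WAPL-NIPBL effect 1 in place of 0, and the WAPL-NIPBL effect against the TIR1 effect 2 in place of 1. DESeq2 gave 2 calls for the PDS5AB-NIPBL effect and 1 for the WAPL-NIPBL effect, no filter on low counts gave 2 and 1, and the robust dispersion fit gave 1 for PDS5AB-NIPBL. Fitting the compared groups alone gave 0 in place of 2 for the WAPL-NIPBL effect against the WAPL effect. Apart from the genes named with it in the report, the block added calls of Zscan4a for PDS5AB-NIPBL against TIR1 (adjusted p = 0.0499) and Zscan4f for WAPL-NIPBL against TIR1 (0.0490), and it changed no other member's call. The cause was not tested.

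Leaving out 1 library at a time gave 7 to 7 calls for the PDS5AB effect, 6 to 7 for WAPL, 0 to 0 for TIR1 and WAPL-NIPBL and 0 to 1 for PDS5AB-NIPBL. For untreated cells against TIR1 it gave 8 to 8 (PDS5AB), 0 to 1 (WAPL), 5 to 7 (PDS5AB-NIPBL) and 5 to 5 (WAPL-NIPBL), and for the combined against the single lines 8 to 8 and 2 to 4 (WAPL). The counts of 8 to 8 include Tcstv3 and Zfp352, which passed the filter largely through the PDS5AB line, so their calls there add no support. Treated WAPL against treated TIR1 gave 7 to 8. For effects against the TIR1 effect it gave 4 to 5 (PDS5AB), 5 to 6 (WAPL), 0 to 2 (PDS5AB-NIPBL) and 0 to 1 (WAPL-NIPBL). It gave 0 to 0 for PDS5AB-NIPBL against PDS5AB, 0 to 2 for WAPL-NIPBL against WAPL and 1 to 5 for PDS5AB against WAPL. In the likeness, the 10 leading genes shared 8 with Spearman's rho, 1 with the 12 PDS5AB and TIR1 libraries and 2 with the other 18.

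For the lists, alternatives added after seeing the data gave 19 to 25 higher 2-cell genes in PDS5AB and 18 to 21 in WAPL cells, and 16 to 20 and 8 to 18 lower repressors. In PDS5AB-NIPBL cells they gave 1 to 3 higher 2-cell genes, 2 to 5 lower activators and 5 to 12 lower repressors, in WAPL-NIPBL cells 0 to 11 lower repressors, and in TIR1 cells 0 to 5 higher and 3 to 5 lower repressors. Depth limits the combined lines, where the members gave at most 16 fragments per library, and near-identical copies limit the comparison of one copy with another.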
